A study of Auxenochlorella pyrenoidosa with 8 samples.

Results

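A set of 83 genes of a green alga stood moderately higher after 4 h in air than on 5% CO2 and had largely receded by 24 h. The genes were chosen from the deposited RPKM values (reads scaled to the length of the gene and to the reads of the library), averaged over the 2 libraries of each time. A member needed a 4 h mean of at least 10 RPKM, a log2 change from 0 h to 4 h of at least 1 and below 2 after 1 RPKM had been added to each mean, and a change from 0 h to 24 h below 0.5 of that at 4 h. The 83 members were 0.807% of the 10283 genes in the table. They are called the transient genes here. Since the 0 h, 4 h and 24 h values chose them, their rise at 4 h and their fall by 24 h are a description of the choice and not a finding. The 1 h libraries and the order of libraries within a time took no part in the choice. The gene models entered it only through the length of the gene, by which the RPKM is scaled.

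The alga was Auxenochlorella pyrenoidosa (Chlorella pyrenoidosa) strain FACHB-9, a unicellular green microalga grown photoautotrophically. The labels describe 5 days of growth on 5% CO2, after which the culture was bubbled with air, and whole cells were taken after 0, 1, 4 and 24 h of air, with n = 2 libraries per time. All groups share the strain and the growth on 5% CO2, and 0 h is the reference, with no culture held on 5% CO2 to the later times among the samples used here, so air and elapsed time cannot be told apart. The submitters' design text gives a pair of independent biological experiments in the same batch.

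When CO2 becomes scarce, green algae are known to induce a carbon-concentrating mechanism, in which bicarbonate transporters and carbonic anhydrases raise the CO2 level around Rubisco, the enzyme that fixes it. Genes of photorespiration, which recycles the product formed when Rubisco takes up oxygen in place of CO2, are known in the green alga Chlamydomonas reinhardtii to be induced in the early hours of such a shift. No name or product stands beside the gene numbers in the files, so which of these roles any transient gene has is not given, and members are identified by number, position and gene model. RNA of whole cultures was measured, in which fewer cells that express a gene and less RNA per cell cannot be told apart.

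The libraries held 16706278 to 35463138 reads in genes, recovered from the RPKM, and a member rested on 38 to 109547 reads in a single library. The similarity of the 1 h and 24 h libraries goes against their labels. Over the 9326 tested genes, 1 h library 2 correlated best with 24 h library 1, at r = 0.992. 1 h library 1 correlated best with 0 h library 2, at 0.981, and next with 24 h library 2, at 0.980, and the latter had 1 h library 1 as its nearest. The 1 h libraries correlated with each other at 0.954 and the 24 h libraries at 0.934, whereas the 4 h libraries reached 0.993 and the 0 h libraries 0.968. These are correlations across genes, which are not independent replicates. Every value at 1 h and 24 h below rests on the labels as given, and is shown for each library.

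Across the transient genes the 4 h libraries stood clear of the rest and were nearly alike. The median member was at 16.1 and 18.6 RPKM in 0 h libraries 1 and 2, and reached 23.7 and 21.6 in the 1 h pair, 48.5 and 50.6 in the 4 h pair, and 19.5 and 21.9 in the 24 h pair. Relative to the gene's own 0 h mean on the log2(RPKM + 1) scale, the median member was at 1.37 and 1.30 in the 4 h libraries, beside -0.20 and -0.19 for the median tested gene. Together the transient genes took 0.945% and 1.05% of all reads in the 0 h pair, 1.23% and 1.38% in the 1 h pair, 2.56% and 2.50% in the 4 h pair, and 1.24% in each 24 h library. The 95% Wilson intervals of these shares, which cover counting error only, ran for example from 0.940 to 0.950% in 0 h library 1 and from 2.49 to 2.50% in 4 h library 2.

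**Figure D1:**
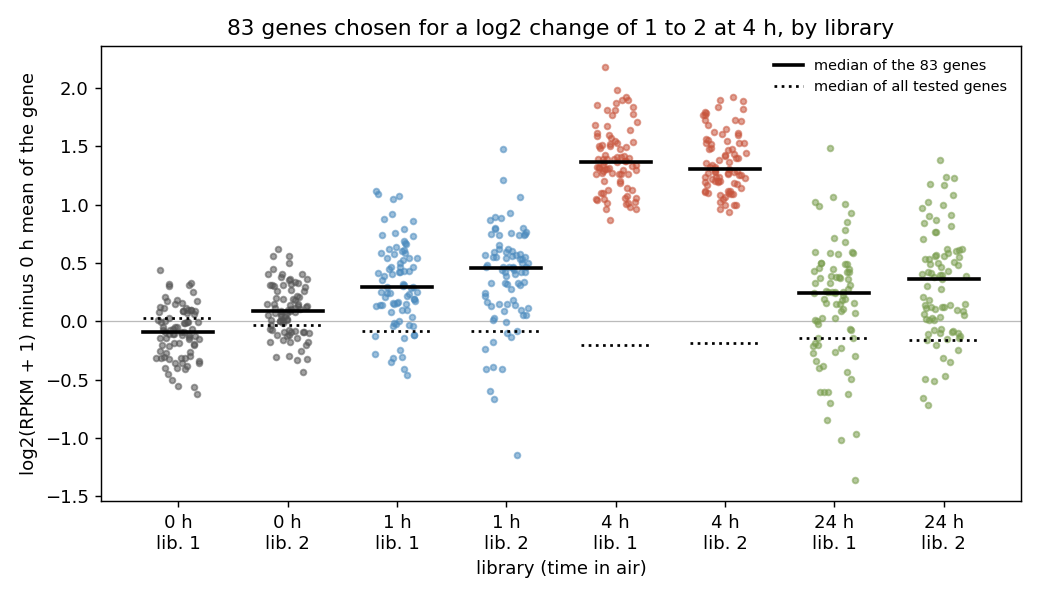
The 83 transient genes in each of the 8 libraries, as log2(RPKM + 1) minus the gene's 0 h mean; each point is a gene, solid lines are medians of the 83 genes and dotted lines medians of all tested genes. The medians of 1.37 and 1.30 at 4 h lie above those of the other 6 libraries, and the points scatter most at 24 h.

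The spread between libraries of the same label was uneven over the time course. The median SD of a transient gene on the log2 scale was 0.087 at 4 h, close to the 0.082 of all tested genes, and 0.21 at 0 h, beside 0.20. At 1 h it was 0.30 beside 0.17 in all tested genes, and at 24 h 0.34 beside 0.22. In 81 of the 83 members both 4 h libraries lay above the other 6 libraries, which held for 8.48% of all tested genes; the choice of members used most of these values. The exceptions, named because the count is small, were g4470 and g10250.

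The contrast that chose the members sets 4 h of air against 0 h. Of the 83, 60 rose (limma, adjusted p under 0.05), where 2.16% of all tested genes did. At an unadjusted p under 0.05, 81 members were higher in limma, beside 7.11% of all tested genes, and voom on recovered reads called 60 that rose, beside 2.98%. All 83 were above 0. The fold change in the means, a plain ratio of RPKM with nothing added, ran from 2.01 to 5.03 with a median of 2.65. The log2 fold change had a median of 1.35 and ran from 1.02 to 1.94, with 30 members under 1.25 in the log2 change used by the rule, 29 between 1.25 and 1.5, and 24 at 1.5 or more. The median tested gene stood at -0.20, and relative to it the median member stood at 1.54. The count of called members was 13 without 0 h library 1, 1 without 4 h library 1 and 2 without 4 h library 2, and the calls over all tested genes in both directions went from 1131 to 149, 40 and 47 alike.

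The most abundant transient gene was g5930, a gene of 4 exons and a coding sequence of 318 bp on the plus strand of scaffold 00852 (312259 to 313491). It was at 1167 and 1355 RPKM at 0 h, then 1385 and 1855 at 1 h, next 2605 and 2507 at 4 h, and finally 1905 and 1373 at 24 h. Its 4 h libraries lay above all others, while one library each at 1 h and 24 h had gone part of the way. The mean went from 1261 ± 133 RPKM to 2556 ± 69.4 RPKM by 4 h (SD, n = 2), and the log2 fold change was 1.02 (SE 0.26, limma adjusted p = 0.042), and over the alternatives the adjusted p ran from 0.024 to 0.239. Next was g2074, with 3 exons and a coding sequence of 399 bp at the very start of scaffold 00219 (1 to 1300, plus strand). Its values were 283 and 289 RPKM at 0 h, then 351 and 602 at 1 h, next 712 and 825 at 4 h, and finally 546 and 382 at 24 h. The 4 h libraries overlapped with no other time, while the 1 h and 24 h libraries overlapped with each other. The log2 fold change from 0 h to 4 h was 1.42 (SE 0.30, limma adjusted p = 0.029, and 0.0087 to 0.199 over the alternatives).

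The median course is shown by g4210 and g7284, the members whose 4 group means lay nearest to the median profile. g4210 is a long gene of 21 exons and a coding sequence of 2691 bp on the minus strand of scaffold 00557 (57836 to 65910). It held 14.8 and 12.3 RPKM at 0 h, then 18.8 and 16.2 at 1 h, next 37.0 and 33.0 at 4 h, and finally 15.1 and 14.8 at 24 h. By 24 h it overlapped with its 0 h values, which had been 13.6 ± 1.76 RPKM beside 15.0 ± 0.220 at 24 h (SD, n = 2 each). The rise to 4 h was 1.31 on the log2 scale (SE 0.18, limma adjusted p = 0.0079, and at most 0.107 over the alternatives). g7284, with 5 exons and a coding sequence of 336 bp on the minus strand of scaffold 01003 (1695363 to 1697416), was at a lower level, with 3.27 and 5.52 RPKM at 0 h, then 5.42 and 6.14 at 1 h, next 12.6 and 11.5 at 4 h, and finally 5.79 and 3.84 at 24 h. Its 0 h, 1 h and 24 h libraries overlapped, and the rise was 1.30 (SE 0.26, limma adjusted p = 0.023, and at most 0.162 over the alternatives), or 0.87 with a pseudocount of 5 RPKM.

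**Figure D2:**
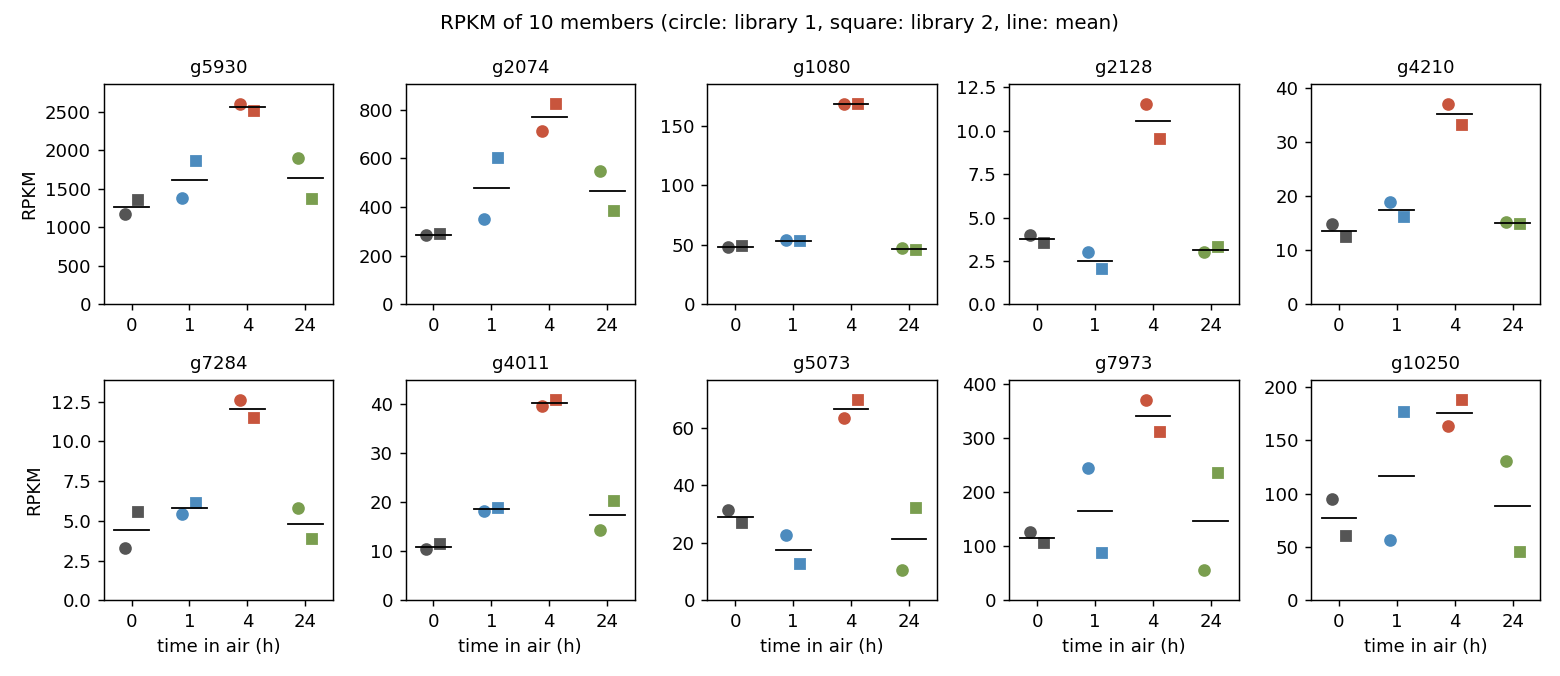
RPKM of 10 transient genes at 0, 1, 4 and 24 h in air, each on its own axis from 0; circles are library 1, squares library 2 and lines the means of 2 libraries. In g1080 both libraries agree at every time, whereas in g7973 and g10250 the libraries at 1 h and at 24 h lie far apart.

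In the 23 members that did not pass the test at 4 h, the median log2 fold change was 1.34, beside 1.36 in the 60 that did. Their median 0 h SD was 0.45 on the log2 scale, beside 0.17, and since the test uses this spread and the rule bounds the change, both values follow from how the genes were divided. The pair with an unadjusted p of 0.05 or more, g7973 and g10250, was named for that reason after the values had been seen. g10250, with 13 exons and a coding sequence of 1503 bp on scaffold 01332 (431848 to 436622, plus strand), was at 94.8 and 60.3 RPKM at 0 h, then 56.8 and 177 at 1 h, next 163 and 188 at 4 h, and finally 131 and 45.5 at 24 h. Its 1 h libraries thus spanned the range from below 0 h to the 4 h level. Its log2 fold change at 4 h was 1.20 (SE 0.65, limma adjusted p = 0.255).

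**Figure D3:**
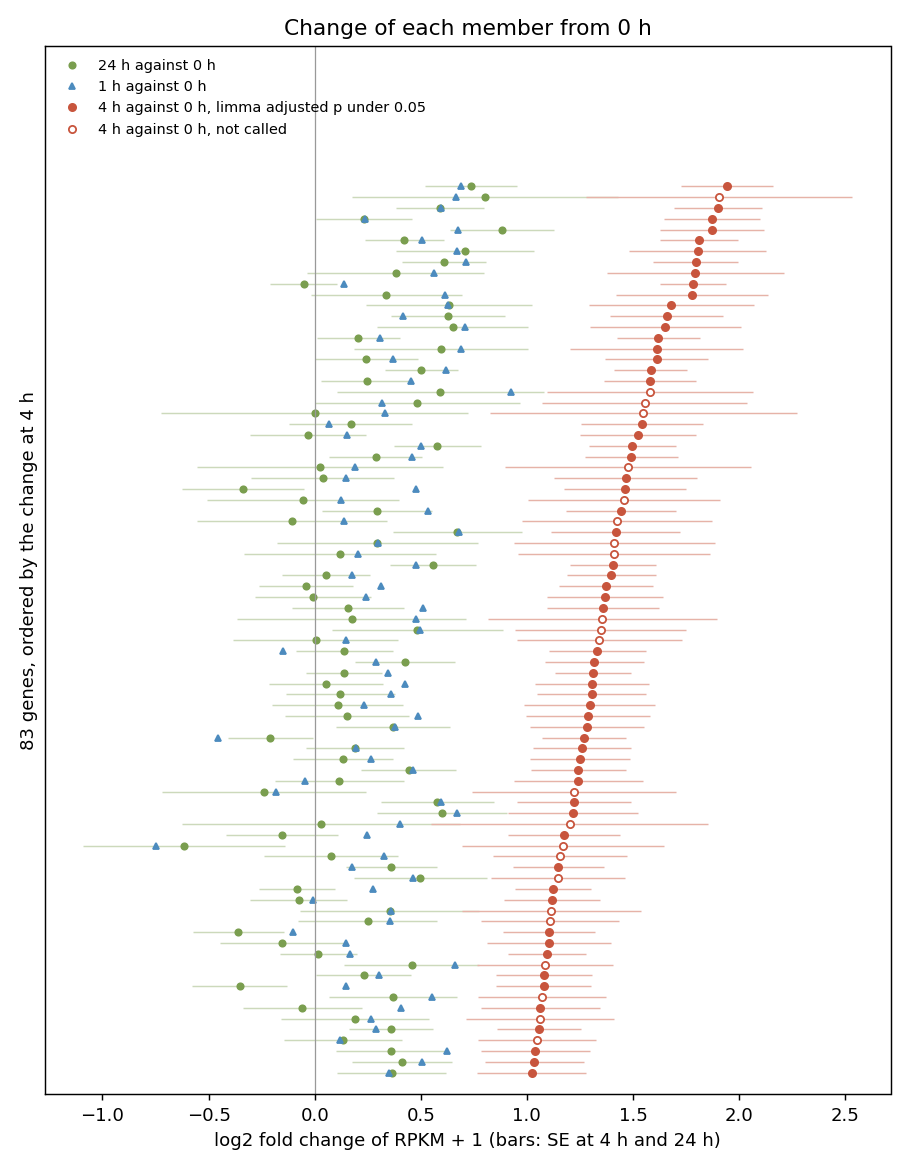
Log2 fold change of RPKM + 1 from 0 h for each of the 83 transient genes, ordered by the change at 4 h; red circles are 4 h (filled where the limma adjusted p was under 0.05), green circles 24 h, blue triangles 1 h, and bars are SEs at 4 h and 24 h. Changes at 4 h run from 1.02 to 1.94, and most 1 h and 24 h points lie between 0 and the 4 h point of the same gene.

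How far the pattern recurred in libraries that did not choose the genes was read by applying the rule to the libraries of 1 number alone. The labels do not say that a number marks an experiment, and with 1 library a time there is no test. From the libraries numbered 1 the rule took 91 genes, with a median log2 change of 1.39 at 4 h and 0.13 at 24 h in those libraries. In the libraries numbered 2 the same 91 genes had medians of 1.12 and 0.30, beside -0.15 and -0.12 over all tested genes. There, 88 were higher at 4 h than at 0 h, where 36% of all tested genes were, and 53 by a log2 change of at least 1, where 2.19% were. The whole rule was met by 34, beside 1.01% of all tested genes. From the libraries numbered 2 it took 94 genes, with medians of 1.22 and 0.20. In the libraries numbered 1 these had medians of 1.07 and 0.36, beside -0.25 and -0.18 over all tested genes. All 94 were higher at 4 h, beside 34.4% of all tested genes, 51 by at least 1, beside 4.41%, and 34 met the whole rule, beside 0.976%. Of the 83 members, 59 (71.1%) were also taken by libraries 1 alone and 48 (57.8%) by libraries 2 alone. The means of these same libraries had chosen the 83, so the overlaps are not independent of the choice.

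The 1 h comparison asked for the early response, and its 1 h libraries were not used by the rule, while its 0 h libraries were. Of the 83 transient genes 0 rose and 0 fell at 1 h in limma, where 0% of all tested genes did in either direction, and voom called 0 too. At an unadjusted p under 0.05, 9 were higher in limma and 18 in voom, beside 2.14% and 4.12% of all tested genes. At that threshold 0 were lower in either, beside 8.07% and 4.92%. The smallest limma adjusted p among them was 0.436. The median log2 change was 0.36, beside -0.08 over all tested genes, and 76 of the 83 were above 0, where 40.3% of all tested genes were. The rule used the same 0 h libraries, so these values are not independent of the choice. By library, the median member had covered 22.4% of its log2 distance from 0 h to 4 h in 1 h library 1 and 32.4% in 1 h library 2.

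Both 1 h libraries lay above both 0 h libraries in 35 members (42.2%), beside 13% of all tested genes, and below both in 2 members (2.41%), beside 28.1%. Among members whose 1 h and 0 h libraries did not overlap, g4629 and g4011 had the largest changes. g4629, with 6 exons and a coding sequence of 804 bp on the plus strand of scaffold 00629 (276298 to 278462), was at 7.41 and 12.2 RPKM in the 0 h libraries and 21.8 and 16.6 in the 1 h libraries. It went on to 29.7 and 31.4 at 4 h and then split to 8.18 and 26.6 at 24 h, so that 0 h and 24 h overlapped. Its log2 change at 1 h was 0.93 (SE 0.49, limma adjusted p = 0.520), and 0.60 without 0 h library 1. g4011, with 4 exons and a coding sequence of 402 bp on the minus strand of scaffold 00514 (1814842 to 1816445), was tighter, with 10.3 and 11.4 RPKM at 0 h, then 18.2 and 18.8 at 1 h, next 39.5 and 40.8 at 4 h, and finally 14.4 and 20.3 at 24 h. Each time stood apart from 0 h in this gene, and the log2 change at 1 h was 0.71 (SE 0.20, limma adjusted p = 0.436).

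The opposite end was held by g5073 and g2128, both lower at 1 h than at 0 h in each library. g5073, with 10 exons and a coding sequence of 1704 bp on the minus strand of scaffold 00704 (117955 to 121740), was at 31.6 and 26.7 RPKM at 0 h, then 22.5 and 12.6 at 1 h, next 63.5 and 69.8 at 4 h, and finally 10.7 and 32.1 at 24 h. Its log2 change at 1 h was -0.75 (SE 0.48, limma adjusted p = 0.562), and it was -1.14 without 1 h library 1 and -0.35 without 1 h library 2. g2128, with 7 exons and a coding sequence of 735 bp on the plus strand of scaffold 00230 (224736 to 227271), was at 4.01 and 3.53 RPKM before the shift and 3.03 and 2.00 after 1 h, and it reached 11.6 and 9.51 at 4 h before 2.98 and 3.28 at 24 h. Its log2 change at 1 h was -0.46 (SE 0.20, limma adjusted p = 0.490), with -0.67 and -0.24 when 1 h library 1 or 2 was left out and -0.23 with a pseudocount of 5 RPKM. Neither change passed the test, and in both genes 4 h was the only time above 0 h in both libraries.

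The step from 1 h to 4 h was tested directly. Its 4 h libraries had chosen the members, so their calls are a description. Of the 83, 5 rose (limma, adjusted p under 0.05), beside 0.172% of all tested genes, and voom also called 5, beside 0.139%. In limma, 66 were higher at an unadjusted p under 0.05, beside 3.09%. The median log2 change was 0.99, with all 83 above 0, and both 4 h libraries lay above both 1 h libraries in 82 members, beside 17.1% of all tested genes. The 5 that rose were g1080, g2128, g5544, g6961 and g7378. The number of calls was 0 when any library of 0 h, 1 h or 4 h was left out, with the replicate number as a block, and with only these 2 times in the fit. It was 13 without either library of 24 h, when the calls over all tested genes went from 38 to 106.

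The steepest steps among the called members were those of g2128 and g1080. The steepest of all members, a log2 change of 1.92 in g5073, was not called. In g2128 the mean went from 2.51 ± 0.724 RPKM at 1 h to 10.5 ± 1.45 at 4 h (SD, n = 2 each), a log2 change of 1.72 (SE 0.20, limma adjusted p = 0.021, and 0.012 to 0.312 over the alternatives), which was 1.05 with a pseudocount of 5 RPKM. g1080, with 4 exons and a coding sequence of 334 bp at the start of scaffold 00092 (1 to 1230, minus strand, its frame incomplete), had a higher level. It held 48.0 and 48.6 RPKM at 0 h, then 53.7 and 53.0 at 1 h, next 168.6 and 168.8 at 4 h, and finally 47.4 and 45.7 at 24 h. The libraries of each time were close together, 1 h lay a little above 0 h, 24 h a little below, and 4 h stood far from the rest. Its log2 change from 1 h to 4 h was 1.64 (SE 0.16, limma adjusted p = 0.021, and 0.013 to 0.312 over the alternatives). The other 3 also stepped up from 1 h to 4 h, at other levels. Unlike g1080, their log2 changes from 0 h to 24 h were above 0, at 0.23 in g7378, 0.42 in g5544 and 0.21 in g6961. g7378, on scaffold 01012 (504277 to 506220), was at 7.70 and 8.85 RPKM at 1 h and 27.5 and 28.1 at 4 h. g5544, on scaffold 00760 (973942 to 977776), went from 20.8 and 19.7 to 54.7 and 48.5 RPKM. g6961, on scaffold 00992 (1537214 to 1538251), went from 62.9 and 80.5 to 189 and 168 RPKM.

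The fall from 4 h to 24 h, which the rule had also used, passed the test in 15 of the 83 transient genes (limma, adjusted p under 0.05), beside 0.375% of all tested genes. In limma, 72 were lower at an unadjusted p under 0.05, beside 4.39%. The median log2 change was -1.17, with all 83 below 0, and both 24 h libraries lay below both 4 h libraries in 82 members, beside 18.3% of all tested genes. The largest called falls were those of g1080, at -1.83 (SE 0.16, limma adjusted p = 0.026, and 0.010 to 0.350 over the alternatives), and g612, at -1.80 (SE 0.29, limma adjusted p = 0.047, and 0.0097 to 0.468). g612, with 9 exons and a coding sequence of 954 bp on the minus strand of scaffold 00047 (223374 to 226095), was at 4.00 and 5.11 RPKM at 0 h, then 5.40 and 8.23 at 1 h, next 13.5 and 14.9 at 4 h, and finally 2.39 and 4.64 at 24 h. Its 1 h libraries lay above 0 h, and it ended within or below its 0 h range, with 1 of its 24 h libraries under both 0 h libraries. voom called 8 members that fell, beside 0.225% of all tested genes, and the limma count was 0 without any 1 library of 0 h or 4 h or without 24 h library 2, 2 without 24 h library 1, and 3 without either library of 1 h. It was also 0 with the replicate number as a block and with only these 2 times in the fit. The fall of g612 was -1.19 with a pseudocount of 5 RPKM.

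At 24 h the transient genes stood slightly above 0 h as a set and were scattered as single genes. The rule used the libraries of both times, so the values of this comparison describe the choice. Against 0 h, 0 rose and 0 fell in limma, where 0% of all tested genes did, and 0 in voom. At an unadjusted p under 0.05, 8 were higher in limma and 18 in voom, beside 4.12% and 8.32% of all tested genes. At that threshold 0 were lower in either, beside 14.3% and 6.51%. Both 24 h libraries lay above both 0 h libraries in 22 members, beside 11.9%. The median log2 change was 0.23, beside -0.16 over all tested genes, with 65 above 0 and 18 below. In the log2 change that the rule used, 14 members were below 0, 36 lay between 0 and 0.25 of their 4 h change, and 33 between 0.25 and the limit of 0.5. The median member kept 14.7% of its 4 h rise in 24 h library 1 and 24.7% in library 2. Members below 0 were fewer after other scalings, with 7 under a trimmed mean of ratios, 7 under quantile normalization and 6 under voom.

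Lowest at 24 h against 0 h were g5073 and g6131. The log2 change of g5073 was -0.61 (SE 0.48, limma adjusted p = 0.492), but its 24 h libraries fell on either side of 0 h: without 24 h library 1 the change was 0.14, and with that library alone it was -1.37. g6131, a gene of 4 exons and a coding sequence of 450 bp on the minus strand of scaffold 00893 (248765 to 250087), was at 227 and 176 RPKM at 0 h, then 184 and 188 at 1 h, next 406 and 457 at 4 h, and finally 173 and 140 at 24 h. Both 24 h values lay under the lower 0 h value, and the change of -0.36 (SE 0.21, limma adjusted p = 0.381) did not pass the test. It ranged from -0.54 without 0 h library 2 to -0.18 without 0 h library 1, was -0.21 without 24 h library 2, and stood at -0.19 after trimmed-mean scaling and -0.20 with voom. In 3 members, g1080, g2128 and g6131, both 24 h libraries were below both 0 h libraries. Their share was 3.61%, beside 33.9% of all tested genes, and the rule had used the libraries of both times. The log2 change of g1080 at 24 h against 0 h was -0.05, and it was above 0 under each of the 3 other scalings.

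The direct comparison of 24 h with 1 h, in which the rule had used the 24 h libraries alone, held 0 calls among the members in limma and 0 in voom, and 0% of all tested genes were called. At an unadjusted p under 0.05, 1 member, g612, was lower in limma and 1 in voom, beside 0.558% and 0.279% of all tested genes, and 0 were higher, beside 0.118% and 0.247%. The median log2 change was -0.11, beside -0.06 over all tested genes, and 63 members were below 0 and 20 above. After trimmed-mean scaling 51 were below 0 and 32 above, with a median of -0.049. Without a library the median ran from -0.158 (24 h library 2) to -0.042 (24 h library 1), with -0.068 without 1 h library 2, and it was -0.065 after quantile normalization and -0.054 with voom.

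The transient genes were also read by which of the 1 h and 24 h libraries stood higher, an order that runs through all tested genes. In 32 members 1 h library 1 and 24 h library 2 were the higher of their pairs, in 34 members 1 h library 2 and 24 h library 1 were, and in 17 the same number was higher at both times. The opposite order, 66 members in all or 79.5%, was also found in 70% of all tested genes, which is near the share among the members. Over the members, the difference between libraries 1 and 2 at 1 h and that at 24 h correlated at r = -0.80 (rho = -0.77, n = 83 genes), beside -0.73 (rho = -0.58) over all tested genes. All points share the same 4 libraries, and an exchange of labels was not tested.

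**Figure D4:**
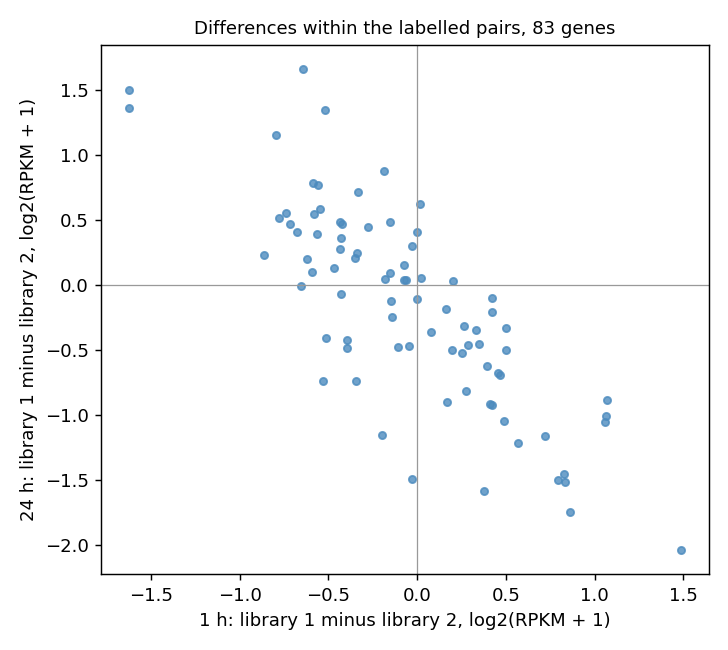
Difference between library 1 and library 2 in log2(RPKM + 1) at 24 h against that at 1 h, for the 83 transient genes. Most points lie in the upper left (34 genes) or lower right (32 genes), so that a gene higher in 1 library of 1 h was mostly higher in the library of the other number at 24 h.

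The groups of 32 and 34 genes were formed from the 1 h and 24 h values, so their levels at those times are fixed by the division and are not compared. At 4 h their median log2 level relative to 0 h was 1.39 and 1.32 in libraries 1 and 2 of the 32, and 1.31 and 1.28 in those of the 34. The 32 had a median of 8 exons and a coding sequence of 1354 bp, and the 34 a median of 6 exons and 842 bp. The 17 with the same number higher at both times had medians of 6 exons and 822 bp. These differences were not tested, and all tested genes were not divided in this way for comparison. Examples, chosen after the values were seen, are g7973 for the first order and g10250, given above, for the second. g7973, with 9 exons and a coding sequence of 1575 bp on the plus strand of scaffold 01076 (77426 to 81103), was at 125 and 107 RPKM at 0 h, then 245 and 86.8 at 1 h, next 371 and 312 at 4 h, and finally 56.5 and 236 at 24 h. Its library 2 at 1 h and library 1 at 24 h were under both 0 h libraries, while the other library of each time was well above them.

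In level, the transient genes moved from the middle to the upper part of the transcriptome. The rule itself selects for this move and for the return by 24 h. Their median at 0 h, 18.6 RPKM, stood at percentile 57.3 of the tested genes, and at 4 h their median of 49.7 RPKM stood at percentile 83.5. At 24 h it was 22.0 RPKM, at percentile 65.4. Means ran from 2.28 to 1261 RPKM at 0 h, where 21 members were under 10 RPKM and 11 at 100 or more. At 4 h, 23 members were at 100 RPKM or more. These levels are per length of the gene span, introns included, so a gene with long introns has a low RPKM for its number of transcripts.

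The gene models of the members were much like those of other genes. The median member had 7 exons, 954 bp of coding length and a span of 2660 bp, beside 7 exons, 1012 bp and 2959 bp over all tested genes, and beside 6 exons, 844 bp and 2405 bp over the 5251 tested genes with a 4 h mean of at least 10 RPKM. The median intron was 206 bp long, beside 212 bp over all tested genes. A start and a stop codon were both present in 74 members (89.2%), beside 86.0%. The predicted 5' untranslated part had a median of 57 bp in the 75 members with a predicted transcription start, beside 74 bp over all tested genes with one. Only g9603 had no intron, and g6776 and g10138 had more than 1 predicted transcript. These 3 are named because the counts are small.

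By position, 32 members lay on the plus strand (38.6%), beside 49.5% of the tested genes, and 49 (59%) had their upstream neighbour on the opposite strand, head to head, beside 55.6%. The members were spread over 43 scaffolds. Scaffold 00629 held 8 of them among its 305 tested genes (2.62%, where members were 0.890% of all tested genes), between positions 215369 and 1040541. It was followed in count by scaffolds 00366 and 01012 with 6 each, among 625 and 496 tested genes (0.96% and 1.21%). Some scaffolds with fewer tested genes had a larger share than 00629, such as 00704 with 3 of 100 (3%). The sources used here name no assembly.

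Next to each other lay a single pair, g6354 and g6355, which are transcribed away from each other on scaffold 00902 with 275 bp between them. g6354 runs from 682077 to 684810 on the minus strand, with 6 exons and a coding sequence of 1395 bp, and g6355 from 685086 to 686660 on the plus strand, with 5 exons and 222 bp. g6354 was at 26.9 and 36.6 RPKM at 0 h, then 41.9 and 46.4 at 1 h, next 91.3 and 79.0 at 4 h, and finally 44.6 and 48.7 at 24 h. g6355 was at 20.4 and 18.6 RPKM at 0 h, then 24.4 and 27.9 at 1 h, next 43.6 and 39.9 at 4 h, and finally 25.6 and 13.5 at 24 h. Both genes rose at 4 h, by 1.41 (SE 0.20, limma adjusted p = 0.0091, at most 0.113 over the alternatives) and 1.06 (SE 0.28, limma adjusted p = 0.049, at most 0.244). At 24 h g6354 stayed above its 0 h libraries, while the 24 h libraries of g6355 fell on either side of its 0 h range. Over the 135 other neighbour places of members with a tested gene, the median log2 change at 4 h was -0.21, beside -0.20 over all tested genes. A change of at least 1 was seen in 9 of them (6.67%), beside 2.63% of all tested genes. The values over all tested genes include the members, which were chosen for such a change, while the neighbour places leave them out.

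The rule's limits were not gaps in the data. The member with the smallest log2 change at 4 h stood at 1.01 and the nearest gene left out at 0.99. The member with the largest stood at 1.94 and the nearest gene beyond at 2.06. For the share of the 4 h change kept at 24 h, the nearest values were 0.495 inside and 0.512 outside, and for the 4 h mean they were 10.5 and 9.03 RPKM.

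Set beside the most similar genes, the transient genes had the lowest medians at 1 h and 24 h. Another 52 genes met the same conditions with a log2 change of 2 or more at 4 h. Their median log2 level relative to 0 h was 0.65 and 1.42 in 1 h libraries 1 and 2 and 1.17 and 0.82 in the 24 h libraries. A further 72 genes with a change of at least 1 at 4 h kept 0.5 or more of it at 24 h, and their medians were 0.56 and 1.01 at 1 h and 1.15 and 0.79 at 24 h. The transient genes had medians of 0.29 and 0.46 at 1 h and 0.24 and 0.36 at 24 h. All 3 sets were chosen from the 0 h, 4 h and 24 h values. The rule bounds the 24 h change of the transient genes from above and that of the 72 from below. The larger 4 h change of the 52 leaves room for a larger one at 24 h. The order of the sets at 24 h thus largely follows from the choice, and the differences between them were not tested.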

How the data were processed

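The authors deposited RPKM values for 10283 genes in 1 column per library, per the file headers; TopHat and HTSeq are named in the submitters' processing notes, with no settings given in the sources used here. Gene models are deposited AUGUSTUS predictions with a score and start and end positions per feature, counted from 1, per the file headers. Multiplied by the gene span and the library's scale, 100% of RPKM values came out as whole reads within 0.01. limma 3.58.1 in R 4.3.3 was fitted with trend and robust moderation to log2(RPKM + 1), with all 8 libraries in 4 groups. The fit took the 9326 genes that averaged 1 RPKM or more over the libraries (957 left out). The p-values were 2-sided, adjusted by Benjamini-Hochberg over these genes and called under 0.05. SEs, log2 fold changes and calls are on the log2(RPKM + 1) scale, which understates changes of low genes. Fold changes in the means are plain ratios of mean RPKM. All 83 members passed the filter, as the rule ensures. With 2 against 2 libraries an exact permutation test could not reach 0.05. Recovered reads were also tested with voom, from limma. Whether p-values measure more than technical spread rests on the design text's statement of independent experiments.

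Members, lists and tests were chosen with earlier results of these data known. Members were named by rank in each comparison: the largest and smallest changes at 1 h without overlap, the most abundant at 4 h, the largest called steps from 1 h to 4 h and from 4 h to 24 h, the lowest at 24 h, the nearest to the median profile, and the neighbouring pair; others are named with the reason. Lists of carbon-concentrating, photorespiration, Calvin cycle, light-harvesting, nitrogen and chaperone genes could not be measured, as the files pair gene numbers with no product. Replicates differed beyond sampling noise, with a chi-square per degree of freedom of at least 20.4.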

Additional observations from a re-analysis of the deposited data

Results flagged for a closer look

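Some transient genes were called in a direct contrast of times in air (limma, adjusted p under 0.05). From 1 h to 4 h this held for 5 members, with g1080 at a log2 difference of 1.64 and g2128 at 1.72 as the largest among the 5. From 4 h to 24 h it held for 15 members, led by g1080 at -1.83 and g612 at -1.80. Both counts were 0 with the replicate number as a block, with only the compared times in the fit, and without any 1 library of 0 h or 4 h. Both use libraries that chose the members, and the rule itself required a fall from 4 h to 24 h. The calls are thus a description and not evidence that the responses differ. They take the 1 h and 24 h labels as given.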

How the results depend on the processing

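The number of members ranged from 71 to 107 over the other forms of the rule, and from 78 to 90 with a library left out. Trimmed-mean scaling gave 107 members, of which 73 were shared, and quantile normalization 106, of which 75 were shared. With the replicate block there were 49 calls at 4 h beside 60, 0 from 1 h to 4 h beside 5, and 0 from 4 h to 24 h beside 15; the labels do not say that a number pairs libraries, and deviations of same-numbered libraries correlated at 0.01 to 0.35 over 5 pairs of times and at -0.73 between 1 h and 24 h, whose labels are in doubt. Calls in the last 2 comparisons were also 0 with only the groups compared in the fit. At 4 h against 0 h the same setting gave 79 calls beside 60, and 1883 beside 1131 over all tested genes. From 1 h to 4 h there were 2 calls without a filter and 8 after trimmed-mean scaling. From 4 h to 24 h there were 1 without a filter, 4 after quantile normalization, 4 without trend and robust moderation and 8 with voom. Leaving out 1 library gave 1 to 74 calls at 4 h against 0 h, 0 to 13 from 1 h to 4 h, and 0 to 3 from 4 h to 24 h, where a lone library is assumed to vary like the other groups.

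Without the libraries numbered 1 at 1 h and 24 h, chosen after seeing the data, 25 members of 395 genes were called from 1 h to 4 h and 24 of 263 from 4 h to 24 h, and without those numbered 2, 16 of 129 and 45 of 414, where the full set of libraries calls 38 and 65 genes. The latter fit also called 1 member of 258 genes at 24 h against 0 h and 1 of 98 against 1 h, a comparison of 1 library with 1. These fits take the spread from the 0 h and 4 h pairs alone, while the members spread more in the 1 h and 24 h pairs. The median change at 4 h was 1.16 with a pseudocount of 5 RPKM, 1.55 after trimmed-mean scaling, 1.51 after quantile normalization, 1.63 with voom and 1.28 to 1.49 with a library left out. From 1 h to 4 h it was 1.16 with voom and 0.99 to 1.04 with a library left out. At 24 h against 0 h it was 0.38 after trimmed-mean scaling, 0.40 with voom, 0.36 without the libraries numbered 1 and 0.15 to 0.38 with a library left out. From 4 h to 24 h it was -0.999 with a pseudocount of 5 RPKM, -1.26 with voom, -1.03 without the libraries numbered 1 and -1.20 to -1.03 with a library left out. The change of g5073 at 24 h turned to 0.14 without 24 h library 1 and was -1.37 without 24 h library 2, in both cases also with the same-numbered 1 h library out. The cause of these shifts was not tested. No direction turned for another named gene in its own comparison.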
